A study of Homo sapiens with 9 samples.

Results

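The genes described here are 29 genes of cholesterol and fatty acid synthesis that respond to the sterol regulatory element-binding proteins (SREBPs). They were taken by gene symbol from a list of the pathway and matched to the count tables by Ensembl identifier. The tables list 60609 identifiers, of which 21682 had enough reads to be tested, and all 29 genes were among those tested. By role, they were 4 regulators, 7 enzymes from acetyl-CoA to farnesyl diphosphate, 3 enzymes that form squalene and lanosterol, 8 enzymes that turn lanosterol into cholesterol, 5 enzymes of fatty acid synthesis and desaturation, and 2 genes of lipid transfer and glycerolipid synthesis.

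SREBPs are membrane-bound precursors of transcription factors in the endoplasmic reticulum, where SCAP holds them. When sterols are scarce, SCAP escorts them to the Golgi, proteases release their soluble part, and this part switches on the enzymes of sterol and fatty acid synthesis. When sterols are plentiful, INSIG proteins keep SCAP in the endoplasmic reticulum, and since INSIG1 is itself an SREBP target the system holds itself in balance. Proliferating tumour cells use the pathway to make membrane lipids, and cells in serum also take up cholesterol from lipoproteins.

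The study measured RNA after ribosomal RNA removal in U2-OS cells, an established human osteosarcoma line, and asked which RNAs differ when NCBP2 is overexpressed, a protein that binds the 5′ cap of nuclear RNA in complex with NCBP1. The NCBP2 arm held 6 libraries from 2 clones named CbcA1 and CbcA4 in the labels (here A1 and A4), with replicates A, B and C of each. The controls were 3 libraries, lettered A to C, of 3 clones that carry the empty vector. All cells grew in the same medium with 10% fetal bovine serum and antibiotics, and the labels give no promoter or level of the NCBP2 construct. Because they do not say whether the 3 libraries of 1 clone were separate cultures, the p-values measure only the spread between these libraries, and the NCBP2 arm rests on 2 clones.

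Counts in genes per library were 29234022 at the least, in clone A1 replicate A, and 50554080 at the most, in vector replicate B. Levels are given as CPM, counts scaled to a common library total with TMM factors. NCBP2 itself stood at 299, 348 and 305 CPM in clone A1, at 796, 1035 and 456 CPM in clone A4 and at 98.4, 90.6 and 98.3 CPM in the vector libraries, so every library matched its label. The mesenchymal markers VIM, SPARC and COL1A1 were abundant in all 9 libraries, while COL1A2 did not exceed 1.15 CPM. Summed over 7 mesenchymal markers, the level lay at 4180 to 5320 CPM for clone A1, at 5090 to 6110 CPM for clone A4 and at 5800 to 7110 CPM in the vector libraries. Summed hepatocyte markers stayed at or below 0.351 CPM, adipocyte markers at or below 0.464 CPM and epithelial markers at or below 9.08 CPM. The library A of clone A1 differed most from the others, with correlations of log2 CPM across genes between 0.899 and 0.928 with the other libraries, and changes that rest on it are given with and without it.

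The desaturase gene SCD and the squalene epoxidase gene SQLE gave the most abundant transcripts of the list, while several steps of the mevalonate pathway and of late cholesterol synthesis were scarce. On a scale of CPM per kilobase of exon, with medians over the 9 libraries, SCD, the stearoyl-CoA desaturase that makes monounsaturated fatty acids, led at 165 (lowest library 146, highest 244). SQLE, which commits squalene to sterols, followed at 90.3, ACLY, which makes cytosolic acetyl-CoA from citrate, at 55.2, and MSMO1, a sterol demethylating oxidase, at 45.2. HMGCS1, which makes HMG-CoA, was at 34.7 CPM per kilobase. The SREBP genes differed, with SREBF2 at 22.7 and SREBF1 at 6.02 CPM per kilobase, and INSIG1 lay between them at 17.8. Mevalonate kinase MVK was at 1.03, the sterol reductase TM7SF2 at 0.237 and the lanosterol demethylase CYP51A1 at 0.196 CPM per kilobase. The length used merges the exons of all annotated transcripts of a gene, so the order of the genes depends in part on the annotation.

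**Figure D1:**
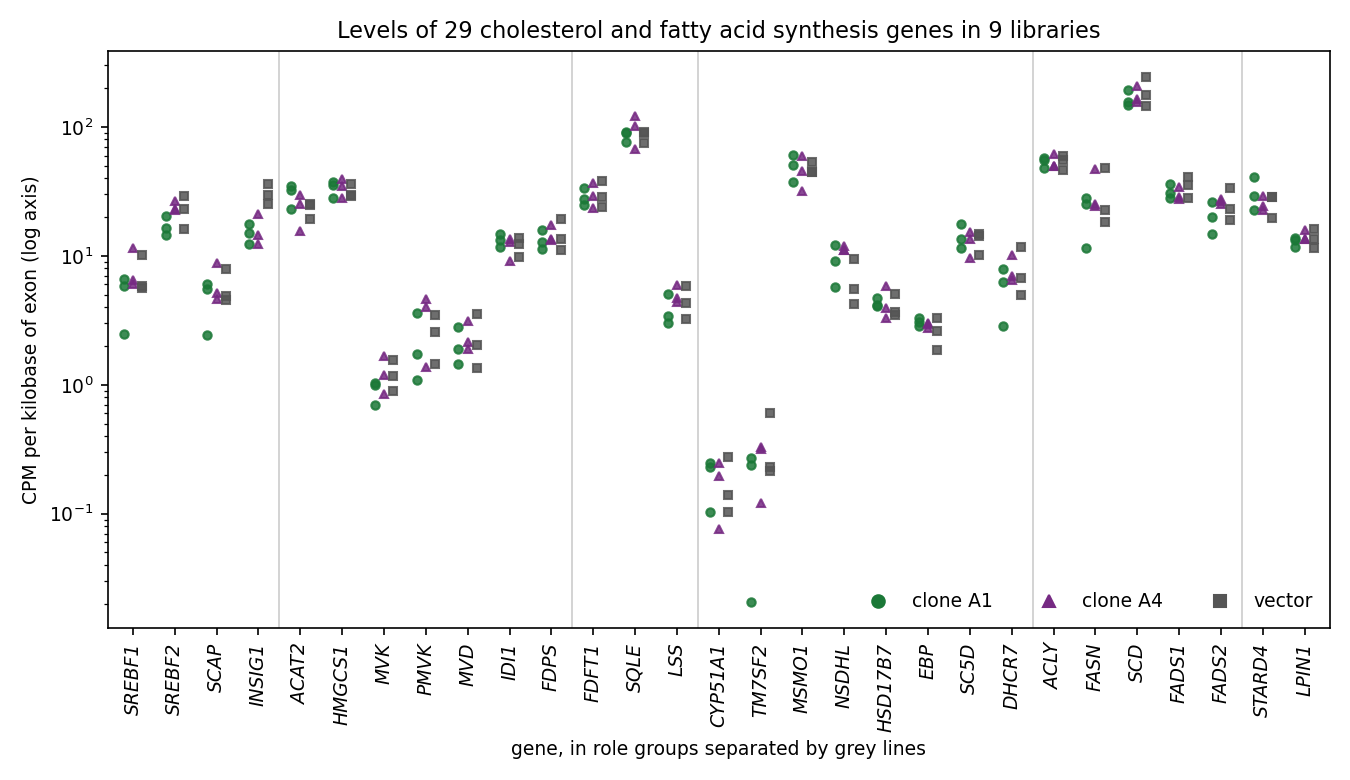
Levels of the 29 genes in each library, as CPM per kilobase of exon on a log axis, with 1 point per library coloured by group and genes ordered by their role. SCD and SQLE are at the top of the scale and CYP51A1 and TM7SF2 at the bottom, and INSIG1 is the gene whose 3 vector points lie above all 6 NCBP2 points.

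Some of these levels have limits in the counting. CYP51A1 had only 15 to 53 counts per library, and 68.2% of its exon length in GENCODE 44 is shared with 2 other genes on the same strand. Of these, 1 is listed in the count tables, with 0 counts in every library, and the annotation used for counting is not given in the sources used here, so how many reads this cost CYP51A1 is not known. For EBP, the sterol isomerase, 36.4% of exon length is shared in this way. ACAT2, the acetyl-CoA acetyltransferase of the first step, had 35.0% to 51.6% of its stranded counts on the opposite strand, where TCP1 and SOD2 overlap it. TM7SF2 had 2 to 105 counts. Reads with several alignments were not counted, so FDPS and HSD17B7, which have pseudogene copies, are measured on their unique sequence only.

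None of the 29 genes passed an adjusted p of 0.05 when the NCBP2 arm was compared with the vector libraries (edgeR's quasi-likelihood test, Benjamini-Hochberg adjustment over all genes tested), where 0.0184% of all genes did. The count was also 0 for clone A1 against vector (0.0646% of all genes), for clone A4 against vector (0.115%) and for clone A4 against clone A1 (0.161%). At an unadjusted p under 0.05, INSIG1 and NSDHL were found in the NCBP2 arm, 2 of 29 where 5.71% of all genes reached it. INSIG1 alone was found in clone A1 (background 7.51%), INSIG1 and NSDHL in clone A4 (5.25%) and SREBF2 alone between the clones (6.63%). DESeq2 counted 1 gene of the list past an adjusted p of 0.05 in the NCBP2 arm and 1 in clone A1, INSIG1 in both. It counted none in clone A4 or between the clones. DESeq2 also called more of all genes than edgeR did, with the counts given in the last section. The comparisons with vector share the 3 vector libraries, so they are not independent of each other.

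The median log2 fold change of the 29 genes was -0.02 in the NCBP2 arm, where the median of all genes tested was 0.02. It was -0.13 in clone A1 (all genes -0.02), 0.03 in clone A4 (all genes 0.03) and 0.14 for clone A4 against clone A1 (all genes 0.04). For 24 of 29 genes the 95% interval of the fold change in the NCBP2 arm lay within 2-fold in either direction, which held for 49.0% of all genes. Within 1.5-fold, the interval lay for 15 of 29 genes and 21.3% of all genes. In clone A1 these counts were 19 (40.5% of all genes) and 7 (13.6%), and in clone A4 they were 24 (44.1%) and 13 (16.3%). Whether this follows from the abundance of the genes was not tested. Without clone A1 replicate A, the median of the 29 genes was -0.04 in clone A1 and 0.05 for clone A4 against A1.

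**Figure D2:**
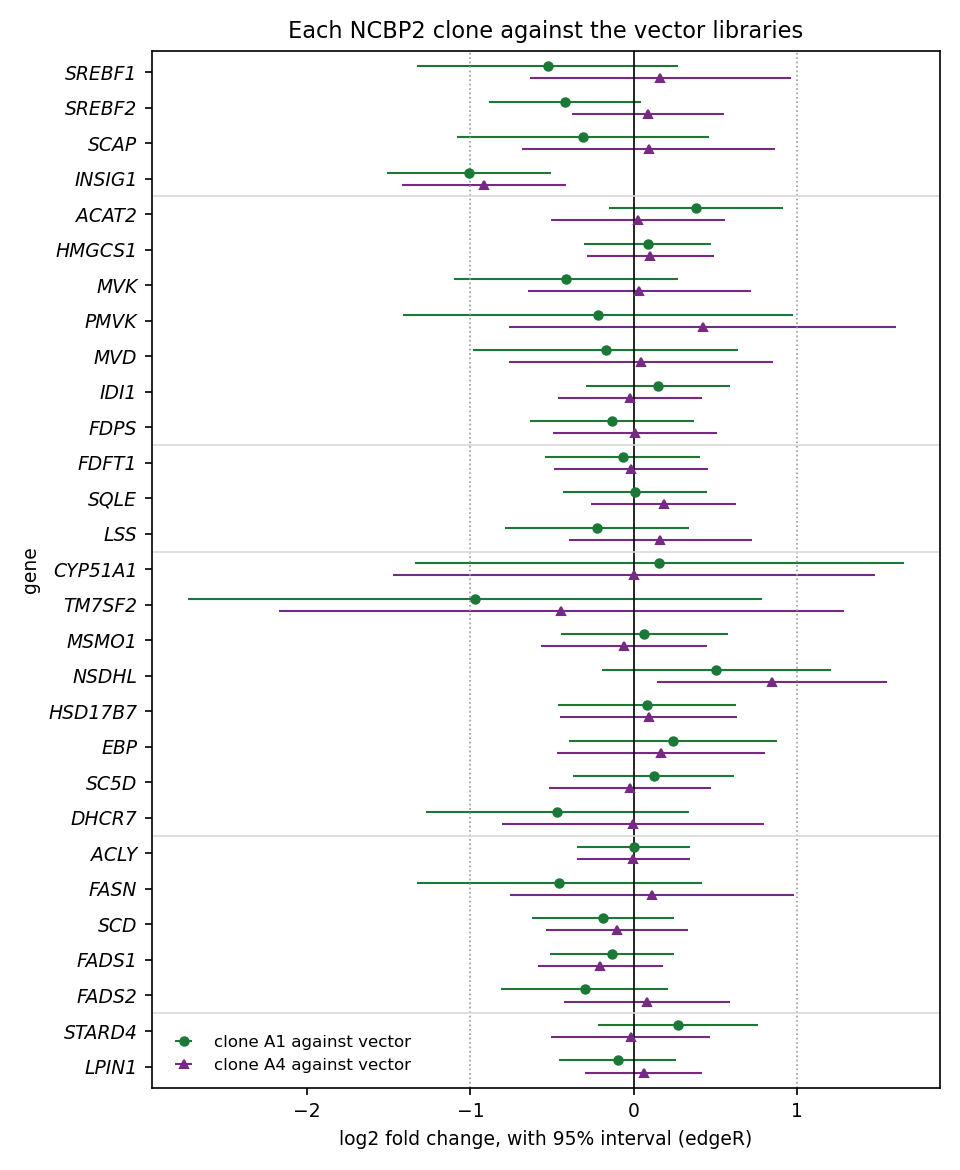
Log2 fold change of each of the 29 genes for clone A1 and clone A4 against vector, with 95% intervals from the fit over all genes, ordered by role. Intervals cross 0 for all genes except INSIG1 in both clones and NSDHL in clone A4.

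Among the regulators, INSIG1 was the gene that separated the NCBP2 and vector libraries. INSIG1 (chr7:155297776-155310235 on GRCh38, plus strand) encodes the protein that retains SCAP. It stood at 54.8, 64.8 and 45.1 CPM in clone A1, at 53.4, 77.0 and 45.0 CPM in clone A4 and at 130.9, 109 and 91.5 CPM in the vector libraries. All 6 NCBP2 libraries lay below all 3 vector libraries. Because RNA was measured in bulk, fewer cells with a transcript and less RNA per cell cannot be told apart for any of these genes. The means were 56.7 ± 12.4 CPM (SD, n = 6) and 110.3 ± 19.7 CPM (SD, n = 3). In the fit over all genes the log2 fold change was -0.96 (SE 0.19, 95% interval -1.37 to -0.56), a ratio of 0.514 (0.388 to 0.681), with an adjusted p of 0.165 by edgeR's quasi-likelihood test. By clone it was -1.01 (SE 0.23, adjusted p = 0.207) in A1 and -0.92 (SE 0.23, adjusted p = 0.308) in A4. Between the clones INSIG1 differed by 0.09 (95% interval -0.41 to 0.59). An exact two-sided permutation test of log2 CPM over the libraries gave a difference of -0.97 and p = 0.0119, the smallest p it allows. This p restates the lack of overlap and is not further support. It also treats the libraries of a clone as separate units. Groups that do not overlap in this direction were found for 2.26% of all genes.

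INSIG1 kept its direction in every refit of the test over all genes, and its call was not the same in all. Over 17 such alternatives its log2 fold change in the NCBP2 arm ran from -1.10 to -0.83. The adjusted p was below 0.05 in 5 of them: DESeq2 (0.00686), voom with library quality weights (0.00839), no filter on low counts (0.0154), offsets for GC content and length (0.0206) and a fit with the replicate letter as a block (0.0486). All 5 treat the libraries of a clone as separate replicates. With counts summed per clone, neither INSIG1 nor any other gene passed. Leaving out any 1 library gave a change between -1.10 and -0.83 with no adjusted p below 0.05.

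SREBF2 and INSIG1 belong to the feedback loop, and SREBPs are known to bind sterol regulatory elements and E-boxes in promoters. The 250 bases before the RefSeq start on GRCh38.p14 are printed for both, 5′ to 3′ on the gene's strand. Capitals mark a match to the sterol regulatory element core TCACNCCAC in SREBF2, the palindromic E-box TCACGTGA in INSIG1, and in both a CCAAT box, here on the opposite strand as ATTGG.
INSIG1 (chr7:155297628-155297877, plus strand): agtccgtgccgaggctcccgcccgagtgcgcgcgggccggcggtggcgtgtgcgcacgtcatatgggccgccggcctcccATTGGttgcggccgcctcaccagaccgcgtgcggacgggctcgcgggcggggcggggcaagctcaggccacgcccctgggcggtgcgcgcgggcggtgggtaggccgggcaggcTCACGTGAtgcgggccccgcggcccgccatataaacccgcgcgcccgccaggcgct
SREBF2 (chr22:41832855-41833104, plus strand): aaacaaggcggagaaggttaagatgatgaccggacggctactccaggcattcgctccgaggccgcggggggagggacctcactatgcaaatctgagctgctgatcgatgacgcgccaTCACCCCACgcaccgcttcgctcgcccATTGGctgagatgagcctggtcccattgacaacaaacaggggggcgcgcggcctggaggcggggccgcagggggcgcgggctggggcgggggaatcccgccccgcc
The E-box starts 56 bases before the start of INSIG1, and the sterol regulatory element core starts 133 bases before the start of SREBF2. Searched on both strands in 27305 promoters of this length, TCACNCCAC was in 0.905%, TCACGTGA in 0.872% and CCAAT in 32.9%. Promoters were matched for 25 of the 29 genes, of which 17 (68.0%) held CCAAT, 1 TCACGTGA and 1 TCACNCCAC, and no match in INSIG1 or SREBF2 overlapped another.

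The genes around INSIG1 on the long arm of chromosome 7 were lower in the same libraries. Over the 40 nearest tested genes, 20 on either side (chr7:151081085-159144867), the median log2 fold change was -0.68 in the NCBP2 arm, -0.72 in clone A1 and -0.63 in clone A4. In the NCBP2 arm 34 of 40 neighbours had a change below 0, where 53.0% of all genes had a change above 0. At an unadjusted p under 0.05, 20 of 40 were lower and none higher, against 2.96% of all genes lower. Without overlap between the arms, 13 of 40 were lower, against 2.26% of all genes. Neighbours of varied function were among those lower at an unadjusted p under 0.05. They included the histone methyltransferase KMT2C (-0.58), the limb development gene LMBR1 (-0.75), the ubiquitin ligase UBE3C (-0.59) and RHEB, which activates mTOR (-0.71). These values are log2 fold changes in the NCBP2 arm, and the arms overlapped for RHEB. INSIG1-DT, the divergent RNA that starts beside INSIG1, was at -0.98. Its mean was 1.43 CPM in the NCBP2 arm and 2.81 CPM in the vector libraries, and the arms overlapped for it too. INSIG1 lay 0.28 below the median of its neighbours, and 5 of 40 neighbours lay lower than INSIG1.

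**Figure D3:**
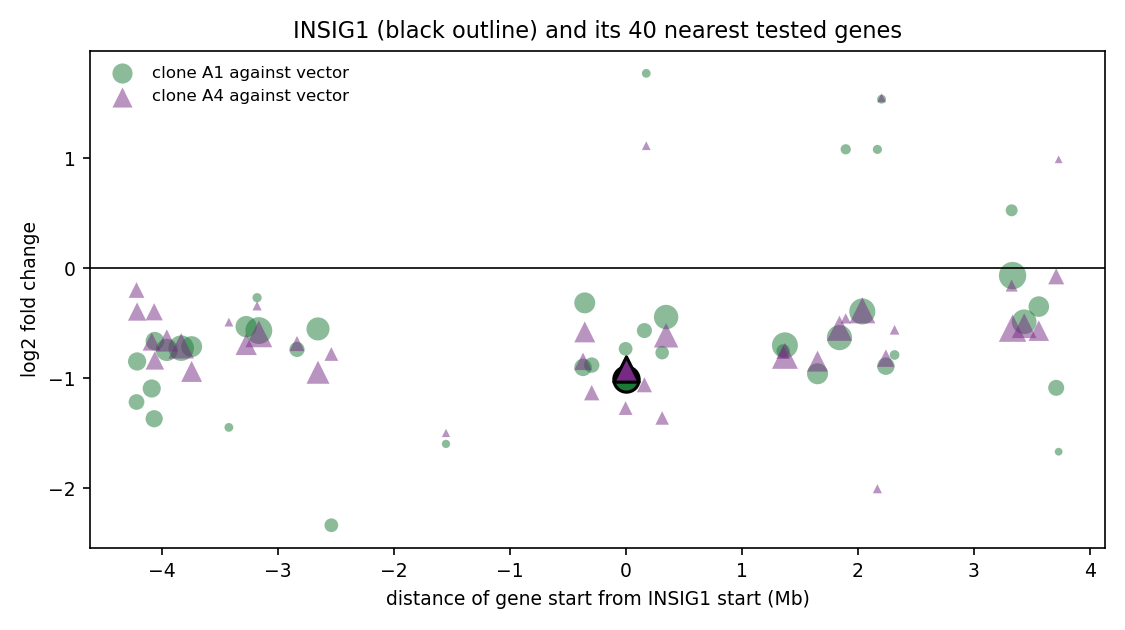
Log2 fold change of INSIG1 (black outline) and its 40 nearest tested genes for clone A1 and clone A4 against vector, by distance in megabases from the INSIG1 start, with larger points for a higher mean CPM. Most points lie below 0 on both sides of INSIG1, with medians of -0.72 in clone A1 and -0.63 in clone A4.

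Set against its neighbours, INSIG1 no longer separated the arms. For each library, the difference of INSIG1 from its own mean over the 9 libraries, less the median of the same over the 40 neighbours, was -0.19, 0.05 and -0.40 in clone A1, at -0.24, 0.35 and -0.31 in clone A4 and at 0.21, 0.45 and -0.03 in the vector libraries (log2). Clone A4 replicate B and clone A1 replicate B lay within the vector range. The arms differed by -0.33 (exact two-sided permutation p = 0.119). With the median log2 CPM of the neighbours subtracted instead, the difference was -0.15 (exact permutation p = 0.631), and clone A1 then lay above vector by 0.11. That median is set by the neighbours of middle abundance and is not a measure of the whole segment. Both p-values treat the libraries of a clone as separate units. With so few libraries, a large p does not show that INSIG1 merely follows its neighbours. The other 28 genes had no such surroundings on the lower side: the next lowest neighbour median in the NCBP2 arm was -0.18, around ACLY. Whether the clones differ in the copy number of this segment was not tested.

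The other regulators overlapped between the arms. SREBF2, which encodes the SREBP that mainly drives sterol synthesis, stood at 116, 163 and 133 CPM in clone A1, at 183, 187 and 216 CPM in clone A4 and at 186, 235 and 130.6 CPM in the vector libraries. Every clone A4 library lay above every clone A1 library, and the vector libraries overlapped with both clones. The log2 fold change of A4 against A1 was 0.51 (SE 0.21, edgeR unadjusted p = 0.0342, adjusted p = 0.684). Such an order without overlap was found in 7.92% of all genes. Around SREBF2 the 40 neighbours had a median of 0.33 in the same comparison, and with offsets for GC content and length the difference of SREBF2 was 0.23 (SE 0.15). Without clone A1 replicate A it was 0.40 (SE 0.23, unadjusted p = 0.108). Against vector, SREBF2 changed by -0.42 (95% interval -0.89 to 0.04) in clone A1 and by 0.09 (-0.38 to 0.55) in clone A4.

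SREBF1, whose products mainly drive fatty acid synthesis, stood at 20.4, 54.8 and 47.8 CPM in clone A1, at 49.5, 53.8 and 95.4 CPM in clone A4 and at 47.9, 83.2 and 46.4 CPM in the vector libraries. Clone A1 replicate A was low, clone A4 replicate C and vector replicate B were high, and the groups overlapped. Its log2 fold change in the NCBP2 arm was -0.14 (95% interval -0.89 to 0.61), and 0.01 without clone A1 replicate A. SCAP followed the same libraries, at 15.2, 38.2 and 34.5 CPM in clone A1, at 28.9, 32.2 and 55.1 CPM in clone A4 and at 30.7, 49.9 and 28.6 CPM in the vector libraries. Its change in the NCBP2 arm was -0.10 (-0.77 to 0.58), and 0.04 without clone A1 replicate A.

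None of the 7 transcripts of the mevalonate pathway, from acetyl-CoA to farnesyl diphosphate, passed the test against vector. Their log2 fold changes in the NCBP2 arm lay between -0.17 (MVK) and 0.21 (ACAT2). The 95% interval lay within 1.5-fold for 3 of the 7 in the NCBP2 arm and for 1 of the 7 in clone A1. In clone A1, MVK changed by -0.41 (95% interval -1.10 to 0.27) and ACAT2 by 0.38 (-0.15 to 0.91). HMGCS1 stood at 233, 248 and 187 CPM in clone A1, at 230.1, 262 and 185 CPM in clone A4 and at 196, 241 and 193 CPM in the vector libraries. The 3 groups covered the same range, and the change was 0.09 (95% interval -0.24 to 0.42). IDI1, the isomerase of the isoprene unit, changed by 0.07 (-0.31 to 0.44) and FDPS, which joins these units to farnesyl diphosphate, by -0.06 (-0.48 to 0.36). The phosphomevalonate kinase PMVK, at 1.09 to 4.61 CPM, had an interval from -0.91 to 1.19, too wide to show a 1.5-fold change.

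Of the enzymes that form squalene and lanosterol, none passed the test, and the log2 fold changes in the NCBP2 arm were -0.04 to 0.10. SQLE stood at 391, 389 and 328 CPM in clone A1, at 438, 524 and 289 CPM in clone A4 and at 385, 397 and 320.4 CPM in the vector libraries. Clone A4 held both the highest and the lowest library of SQLE. Its change was 0.10 (95% interval -0.28 to 0.48) in the NCBP2 arm. For FDFT1, which joins farnesyl diphosphate to squalene, the change was -0.04 (-0.44 to 0.35), and for LSS, which closes the sterol rings, it was -0.02 (-0.53 to 0.49).

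From lanosterol to cholesterol, none of the 8 enzymes passed the test, and NSDHL had the smallest unadjusted p against vector. NSDHL (chrX:152830967-152869729 on GRCh38, plus strand) is the dehydrogenase that removes methyl groups from the sterol together with MSMO1 and HSD17B7. It stood at 11.4, 24.4 and 18.3 CPM in clone A1, at 22.2, 24.0 and 22.2 CPM in clone A4 and at 8.40, 18.7 and 11.0 CPM in the vector libraries. All clone A4 libraries lay above all vector libraries, whereas clone A1 overlapped them. The log2 fold change was 0.69 in the NCBP2 arm (SE 0.29, edgeR unadjusted p = 0.0348, adjusted p = 0.824), 0.51 in clone A1 (SE 0.32, adjusted p = 0.766) and 0.84 in clone A4 (SE 0.32, adjusted p = 0.754). Leaving out 1 library moved the value in the NCBP2 arm to between 0.44 (without vector replicate A, unadjusted p = 0.187) and 1.07 (without vector replicate B), with no adjusted p under 0.05. With voom quality weights it passed, at 1.10 (adjusted p = 0.0207), 1.05 (0.0463) and 1.17 (0.0345). In each of these comparisons voom also called more of all genes than edgeR's test did, with the counts given in the last section. Higher groups without overlap, as for NSDHL in clone A4, were found for 6.2% of all genes.

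The neighbours of NSDHL on the long arm of chromosome X had changes mostly above 0. The median log2 fold change of the 40 nearest genes (chrX:150231075-153798499) was 0.49 in the NCBP2 arm, 0.38 in clone A1 and 0.55 in clone A4. Among the 29 genes, NSDHL had the highest neighbour median in the NCBP2 arm, and the next, around LPIN1, was 0.19. At an unadjusted p under 0.05 there were 9 of 40 neighbours, 8 higher and 1 lower, against 2.75% of all genes higher and 2.96% lower. The part of these surroundings in the level of NSDHL was not tested. Its promoter (RefSeq, GRCh38.p14) is printed because it holds 5 copies of CCAAT, counted on both strands and marked by capitals, of which 2 overlap each other.
NSDHL (chrX:152830813-152831062, plus strand): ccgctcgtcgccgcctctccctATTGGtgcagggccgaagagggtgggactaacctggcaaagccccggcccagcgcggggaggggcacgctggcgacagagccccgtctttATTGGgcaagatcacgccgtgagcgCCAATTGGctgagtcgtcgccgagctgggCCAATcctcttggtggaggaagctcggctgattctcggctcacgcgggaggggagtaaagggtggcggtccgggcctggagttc
CCAAT is bound by the factor NF-Y, a known partner of SREBPs. TCACNCCAC and TCACGTGA were not found in these 250 bases.

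The enzymes that act with NSDHL had values near 0, and their difference from NSDHL was not tested. MSMO1 changed by 0.00 (95% interval -0.43 to 0.44) in the NCBP2 arm and HSD17B7 by 0.09 (-0.37 to 0.54). MSMO1 ranged from 91.7 CPM (clone A4 replicate C) to 174 CPM (clone A1 replicate A), with the vector libraries at 127, 153 and 127 CPM. SC5D, a desaturase of the sterol ring, changed by 0.05 (-0.37 to 0.47) and EBP by 0.20 (-0.34 to 0.75). DHCR7, the reductase of the last step, stood at 19.8, 54.1 and 43.4 CPM in clone A1, at 44.7, 48.2 and 69.3 CPM in clone A4 and at 46.7, 81.5 and 34.2 CPM in the vector libraries. Its extremes were the same libraries as for SREBF1, clone A1 replicate A at the bottom and vector replicate B and clone A4 replicate C at the top. In clone A1 its change was -0.47, and -0.14 without replicate A. CYP51A1 and TM7SF2 had intervals that reached past 2-fold, -1.16 to 1.32 for CYP51A1 and -2.11 to 0.75 for TM7SF2.

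Fatty acid synthesis genes ranged from the steadiest transcript of the list to one that varied several-fold between libraries. ACLY stood at 251, 300.2 and 287 CPM in clone A1, at 257, 318 and 261 CPM in clone A4 and at 288, 309 and 242 CPM in the vector libraries. Its highest library exceeded the lowest by 1.32-fold, the smallest ratio of the 29 genes, and its change in the NCBP2 arm was -0.00 (95% interval -0.29 to 0.29). FASN, the fatty acid synthase, stood at 107, 262 and 236 CPM in clone A1, at 225, 234 and 438 CPM in clone A4 and at 209.6, 449 and 171 CPM in the vector libraries, a 4.19-fold range. Its change was -0.14 (-0.92 to 0.63), so a 1.5-fold difference in either direction lies within the interval. Without clone A1 replicate A the change was -0.00. SCD, the most abundant member, stood at 811, 1021 and 781 CPM in clone A1, at 866, 1083 and 820.3 CPM in clone A4 and at 926, 1279 and 767 CPM in the vector libraries. It changed by -0.14 (-0.51 to 0.22). The desaturases of polyunsaturated fatty acids, FADS1 and FADS2, which overlap on opposite strands of chromosome 11, changed by -0.17 (-0.49 to 0.15) and -0.10 (-0.56 to 0.37). None of the 5 genes passed the test in any of the 4 comparisons.

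STARD4, which carries cholesterol between membranes, stood at 231, 167 and 129 CPM in clone A1, at 164, 139 and 128 CPM in clone A4 and at 161, 112 and 164 CPM in the vector libraries. Clone A1 replicate A was the highest library, the reverse of its place for SREBF1 and FASN. Its change in the NCBP2 arm was 0.13 (95% interval -0.30 to 0.57), and -0.01 without clone A1 replicate A. LPIN1, a phosphatidate phosphatase of triglyceride synthesis, varied 1.38-fold over the libraries and changed by -0.02 (-0.33 to 0.30).

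Another 17 genes of the pathway were read beside these: the second INSIG gene INSIG2, the proteases MBTPS1 and MBTPS2 that cut SREBPs, the enzymes GGPS1, ACACA, ACSS2, ELOVL5, ELOVL6, ACSL3, ME1 and SOAT1, the sterol-binding protein TMEM97, the sterol receptors NR1H2 and NR1H3, and their targets ABCA1, ABCG1 and MYLIP. All 17 were tested, and none passed an adjusted p of 0.05 in any of the 4 comparisons by edgeR, nor at an unadjusted p under 0.05 against vector. DESeq2 also gave 0 in each. Their median log2 fold change was -0.14 in the NCBP2 arm, with values from -0.24 (NR1H3) to 0.37 (ME1). INSIG2, which shares the role of INSIG1, changed by -0.05 (95% interval -0.58 to 0.48). ACSS2, which makes acetyl-CoA from acetate, lay above its clone A1 level in clone A4, by 0.63 (SE 0.25, edgeR unadjusted p = 0.0283, adjusted p = 0.664), at 9.57, 12.9 and 8.56 CPM in A1 and 17.4, 14.6 and 16.0 CPM in A4. It was 1 of 17 genes at an unadjusted p under 0.05, where 6.63% of all genes reached it, and an order without overlap in this direction held for 7.92% of all genes.

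**Figure D4:**
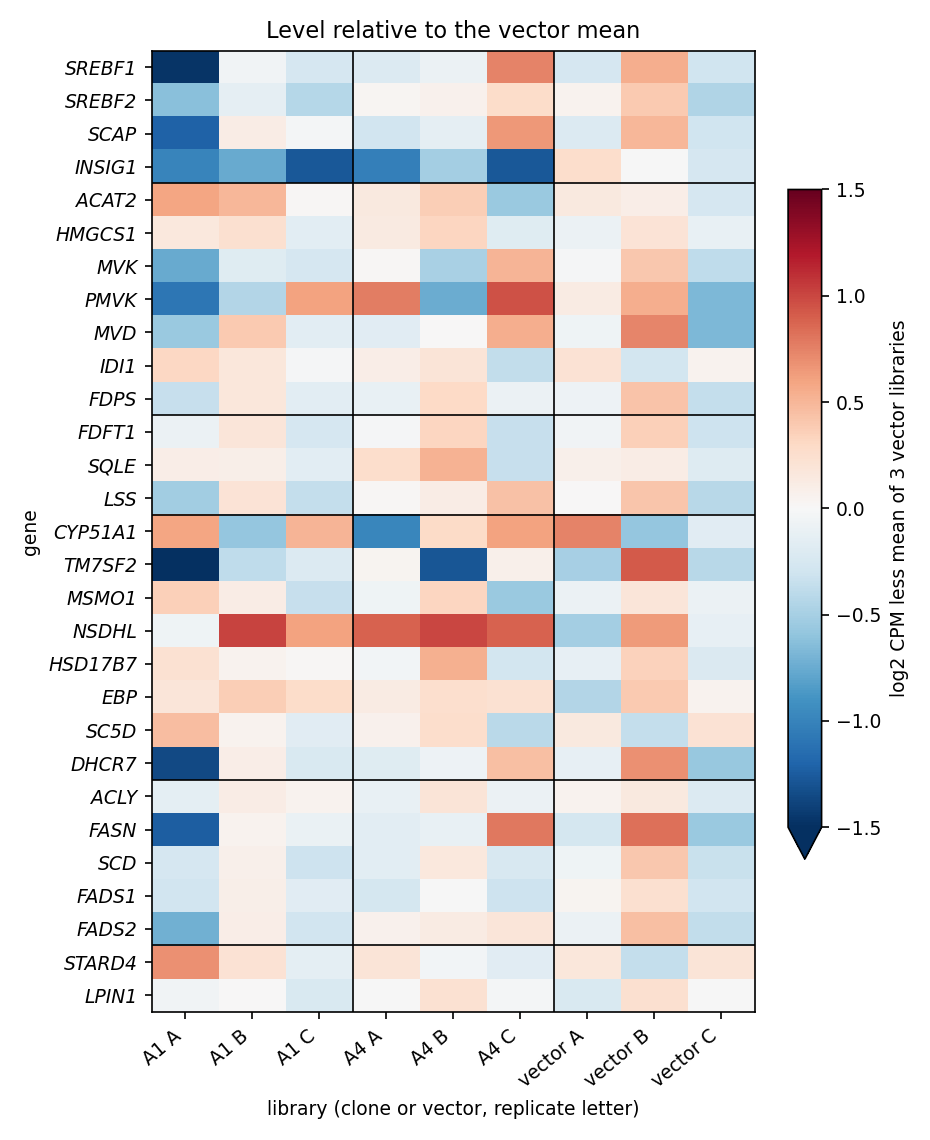
Level of each of the 29 genes in each library relative to the mean of the 3 vector libraries (log2 CPM, blue lower and red higher), with genes ordered by role. The column of clone A1 replicate A is low for SREBF1, SCAP, FASN and DHCR7 and high for STARD4, and the row of INSIG1 is low in all 6 NCBP2 libraries.

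Levels of the 29 genes also varied with the base composition of their transcripts, most in 3 libraries from 3 different groups. Over the 29 genes, the Spearman correlation between GC content and a gene's log2 difference from its own mean was -0.92 in clone A1 replicate A, 0.82 in clone A4 replicate C and 0.84 in vector replicate B. In the other 6 libraries it lay between -0.59 and 0.32. Across 21586 tested genes with a GC value the same correlations were -0.44, 0.41 and 0.55, so the pattern was present in the whole transcriptome. Genes are not independent replicates, and no test was made of these values. The 15 members with a GC content at or above the median of 49.6%, FASN (65.3%) and SREBF1 (63.2%) among them, had a median difference of -0.63 in clone A1 replicate A and of 0.54 in clone A4 replicate C. For the 14 members below it, among them STARD4 (34.4%) and HMGCS1 (39.0%), the medians were 0.13 and -0.33.

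**Figure D5:**
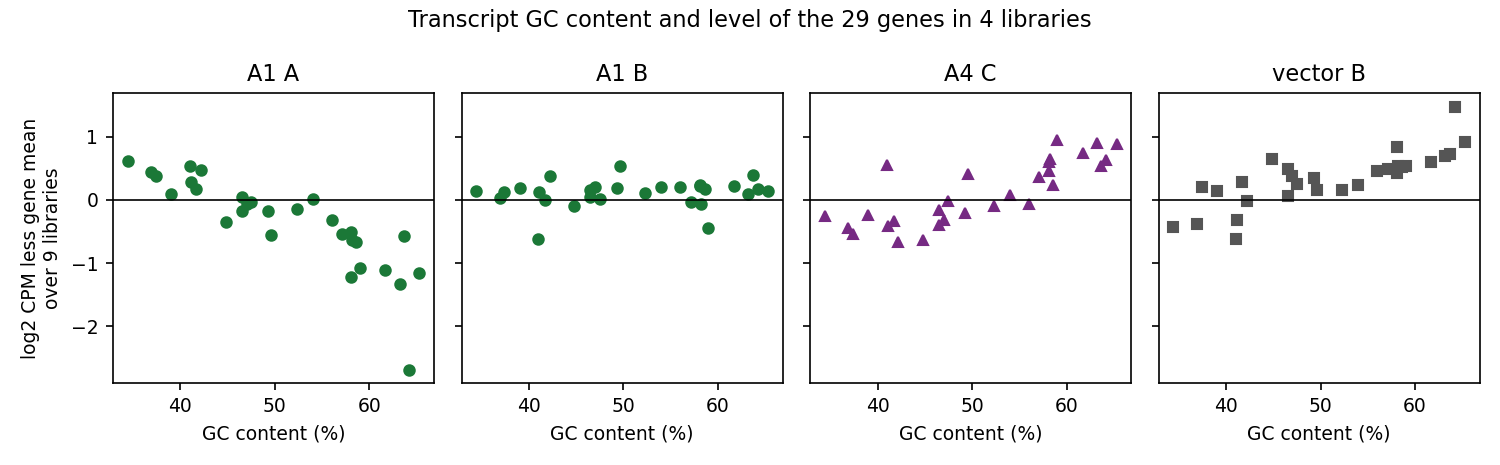
Log2 difference of each of the 29 genes from its own mean against the GC content of its transcript in percent, in 4 of the libraries. Points slope down in clone A1 replicate A (Spearman -0.92) and up in clone A4 replicate C (0.82) and vector replicate B (0.84).

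Offsets for GC content and length were added after the data were seen and are fitted to each library's own trends with both. Differences tied to GC content, and their spread, therefore shrink by construction, and the cause was not tested. With the offsets, the GC-rich members moved toward 0. Their median change in clone A1 went from -0.30 to -0.05 and that of clone A4 against A1 from 0.40 to 0.08. For FASN, the difference between the clones went from 0.57 to 0.07 (0.28 without clone A1 replicate A and without offsets), and for SCAP from 0.40 to 0.00. The standard error of the SREBF1 change in the NCBP2 arm went from 0.35 to 0.13, with a change of -0.14 in both fits. INSIG1 kept -0.94 (SE 0.16) and NSDHL 0.72 (SE 0.23, adjusted p = 0.275) in the NCBP2 arm.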

How the data were processed

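RNA of 9 U2-OS libraries was sequenced after ribosomal RNA removal, as the titles and protocol state, although the molecule label reads polyA RNA. The deposited values are raw, unnormalized read counts for each gene, given without regard to strand and for each strand. Per the submitters' processing notes, STAR 2.7.1a and the build GRCh38 were used, and the counting program and annotation release are not given in the sources used here. The strand column with most reads was used. It held 29234022 to 50554080 counts per library, and the opposite strand held 5.51% to 6.42% of stranded reads. Reads assigned to no gene, on 4 lines of each table (44.5% to 63.6% of reads), were left out. Counts cannot separate molecules from copies made in library preparation, so counting errors are lower limits.

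Of 60609 identifiers, 60295 were matched to GENCODE 44, which gave symbols, positions and exon lengths. Promoter sequences came from RefSeq on GRCh38.p14. Groups were taken from the sample titles. The test was edgeR 4.0.16's quasi-likelihood test in R 4.3.3 (filterByExpr, TMM, robust, two-sided) with Benjamini-Hochberg adjustment over 21682 genes and a threshold of 0.05. One fit had 2 groups (NCBP2, vector) and another had 3 (A1, A4, vector). The common biological coefficient of variation was 0.411. Log2 CPM used a prior count of 2. Only the edgeR fit with 3 groups was run on simulated data. These had changes in clone A4 alone and less spread between libraries than the real data. They do not test the fit with 2 groups or the alternatives. Alternatives were DESeq2 1.42.0, voom quality weights (limma 3.58.1), other scaling, no filter, unstranded counts, a replicate block, sums per clone, only the libraries compared and leaving out each library, plus offsets for GC content and length (lowess, span 0.2, 21586 genes) and INSIG1 set against its neighbours, both added after the data were seen. The members, lists and tests were chosen with earlier results of these data known. By rule, values in every library are given for the regulators and for up to 3 members in each direction with the smallest unadjusted p under 0.05 per comparison. Other members shown by library were chosen after their values were seen, to show the range of each role. Of the other pathway genes, up to 2 in each direction are named by the same rule, and 1 gene of that list is not reported here.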

Additional observations from a re-analysis of the deposited data

Results flagged for a closer look

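Over the 29 genes, each was checked for a library far from the others within the 6 NCBP2 libraries, and 1 was found. STARD4 stood at 231.2 CPM in clone A1 replicate A, where the next highest NCBP2 library was at 166.5 CPM and the lowest at 127.9 CPM, so that the gap took up 0.626 of the whole range. Chance alone gives such a library in about 1 of 20 groups checked. STARD4 has the lowest GC content of the 29 genes (34.4%), and the same library was low for the GC-rich members. The part of base composition in this value was not tested.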

How the results depend on the processing

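The main counts were 0 of 29 members in each comparison, and 4, 14, 25 and 35 of all genes for the NCBP2 arm, clone A1, clone A4 and clone A4 against A1. Leaving out each library in turn gave 0 to 0 members in each comparison, and 1 to 8, 3 to 14, 7 to 41 and 10 to 56 of all genes. Members past the threshold in the NCBP2 arm numbered 1 with DESeq2, GC and length offsets, no filter or the replicate block, and 2 with voom. In clone A1 they numbered 1 with DESeq2, the offsets or no filter and 2 with voom, and in clone A4 1 with the offsets or no filter and 2 with voom. Between the clones the count was 0 under every alternative run, and the 17 other pathway genes gave 0 under every alternative in each comparison. All genes past the threshold, for the same 4 comparisons in order, were 104, 238, 161 and 232 with DESeq2, 41, 164, 112 and 168 with the offsets, 20, 312, 163 and 231 with no filter, and 216, 297, 233 and 149 with voom. Sums per clone gave 0 in the NCBP2 arm (906 at an unadjusted p under 0.05), and the 6 libraries of clone A1 and vector alone gave 7. The cause of these differences was not tested. With the replicate letter as a block, the counts of all genes were 13, 38 and 53 against vector. Same-letter libraries had correlated deviations of -0.102 to 0.180, with 6 of 9 pairs over 0.1, against 4 of 18 pairs with different letters. Since not every same-letter pair was over 0.1, the letters were not taken to pair the samples.

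INSIG1 stayed below 0 against vector in all 17 refits, from -1.15 to -0.88 in clone A1 and from -1.18 to -0.78 in clone A4, with adjusted p from 0.00149 to 0.729 and from 0.00941 to 1.0. It passed in 4 and 3 of 17. Set against its neighbours, the INSIG1 difference of -0.97 became -0.33 or -0.15, and the arms then overlapped. On the second scale clone A1 was at 0.11 against vector. The cause was not tested.

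Uncalled values near 0 changed sign in some fits. In the NCBP2 arm, voom gave 0.139 for SCAP and 0.077 for SREBF1. Leaving out 1 library gave -0.287 to 0.198 for SCAP, -0.385 to 0.184 for SREBF1 and -0.361 to 0.069 for SREBF2, each above 0 without vector replicate B, and for SCAP (0.042) and SREBF1 (0.013) also without clone A1 replicate A. In clone A1, SCAP was 0.121 with voom and -0.557 to 0.006 when 1 library was left out. In clone A4, the offsets gave -0.065 for SCAP and -0.015 for SREBF1, and leaving out 1 library gave -0.271 to 0.379 for SCAP, -0.215 to 0.482 for SREBF1 and -0.132 to 0.297 for SREBF2, lowest without clone A4 replicate C for SCAP and SREBF1 and without vector replicate C for SREBF2. Between the clones, voom gave -0.011 for INSIG1 and -0.026 for SCAP, and leaving out 1 library gave -0.17 to 0.231 for INSIG1. CYP51A1, TM7SF2 and PMVK had few counts, and their changes were the least precise.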
